A study of Mus musculus with 8 samples.

Results

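The expression of 10 genes that mark muscle satellite cells (SCs) was compared between control and exercise mice. The genes were taken by name, with earlier results of these data known. They comprised the surface proteins Chodl, Sdc4, Vcam1 and Cd82, the receptors Fgfr4 and Musk, and the signalling inhibitor Spry1. The myogenic factors Myf5 and Myod1 and the filament protein Des completed them. All 10 were among the 52636 rows of the expression table, which held 52535 distinct symbols. Only 5 of the 10 reached the filter, an average of 1 FPKM across libraries, and entered the test, which covered 4328 genes.

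SCs are stem cells that sit beneath the sheath of each myofiber and supply new muscle nuclei in growth and repair. They carry adhesion molecules, proteoglycans and growth factor receptors that are used to recognise and sort them, and they hold Pax7 from quiescence into activation. Upon activation they produce the myogenic factors MyoD and Myf5, proliferate, and either differentiate into muscle that is rich in desmin or return to quiescence under inhibitors such as Spry1.

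Both groups were male C57B/6J mice, per the methods 10 weeks old when divided into groups, before the 4 weeks of training or sedentary life. Control mice were sedentary. Exercise mice had 4 weeks of treadmill running, with 4 sessions a week of 30 min each at a speed of 12 m/min. From each, about 800 cells went into a library made with a kit for single cells, and the sort took cells that lacked CD31, CD45, CD11b and Sca1 and carried CD34 and α7-integrin. Each group had 4 libraries. The labels do not say whether these came from separate animals, while the legends of the study count mice, and p-values measure the spread between these libraries.

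The FPKM values (reads per gene length and library size) were whole multiples of 1 step per library once multiplied by gene length, so that the reads behind each value could be recovered. Control libraries held 2339966 to 3013354 reads on 5169 to 7306 genes, and exercise libraries held 1011737 to 1200221 reads on 2348 to 3289 genes. Mitochondrial transcripts took 2.09% to 15.3% of reads in control libraries, 7.56% and 7.85% in exercise 2 and 1, 50.2% in exercise 3 and 68.7% in exercise 4. Some libraries stood apart or were close to each other. Between exercise 1 and 2 the chi-square of the gene counts, per degree of freedom, was 3.86, against 82.6 to 711 in the other pairs within a group. Genes with many reads in 1 library and none in another of its group were then followed in a further library. In control 4, the 345 such genes of control 1 without reads in control 3 had 0.281 of their former share (median). The 658 such genes of control 3 without reads in control 1 had 0.714. In exercise 3 the medians were 0.299 for 139 such genes of exercise 1 but not exercise 4, and 0.677 for 142 of exercise 4 but not exercise 1. In control 3 the median was 0.674 for 532 such genes of control 2 but not control 1. Whether libraries of a group share RNA was not tested. If some do, fewer than 4 independent samples stand behind that group, and the p-values are too small. Chodl and Sdc4 are therefore also given with the first pair of exercise libraries averaged, and after dropping control 4 and exercise 3 in addition. Where a gene had 0 reads, up to 3 reads were treated as possible, a floor that holds for counting error alone because reads from amplified RNA are copies.

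The defining markers of SCs were not read. Pax7, the transcription factor that defines the cells, had 0 reads in all 8 libraries, which allows up to 0.128 to 0.223 FPKM in control libraries and up to 0.306 to 1.78 FPKM in exercise libraries. Itga7, which encodes the α7-integrin used in the sort, and Pax3, Cdh15, Calcr and Tenm4 had 0 reads in all 8 libraries as well. These limits hold for the table as deposited, and whether its processing removed reads of these genes was not tested. Cd34, the other antigen of the positive gate, was read in every library, at 0.1196, 0.627, 1.48 and 1.27 FPKM in controls 1 to 4 and at 7.55, 9.63, 3.09 and 1.90 FPKM in exercise 1 to 4. Its groups did not overlap, but its log2 fold change of 1.68 ± 0.66 (SE) did not pass the test (adjusted p = 0.067, limma with Benjamini-Hochberg adjustment). As a share of reads the groups of Cd34 overlapped, with the 4 reads of exercise 4 below the share in controls 2 to 4, and the exact permutation p was 0.143 in place of 0.0286. In these libraries the label of the cells therefore rests on the sort. The paper also measured Pax7 RNA by qPCR in sorted SCs, from mice that were injected with PBS.

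Exercise libraries were without reads for 7 of the 10, namely Chodl, Vcam1, Fgfr4, Myod1, Myf5, Cd82 and Musk. Among the 9029 genes with a read in any library, 52.4% had none in exercise libraries. Sdc4 and Des had reads in every library, and Spry1 in all libraries except exercise 4. The mean FPKM was lower in exercise than in control libraries for 9 genes and higher for Sdc4 (plots of levels and of reads by library). Lower values also prevailed over all genes tested, with a median log2 fold change of -1.42. The share of all genes with a lower mean was not counted. In these bulk samples, fewer cells that express a gene and less of its RNA per cell cannot be told apart.

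**Figure D1:**
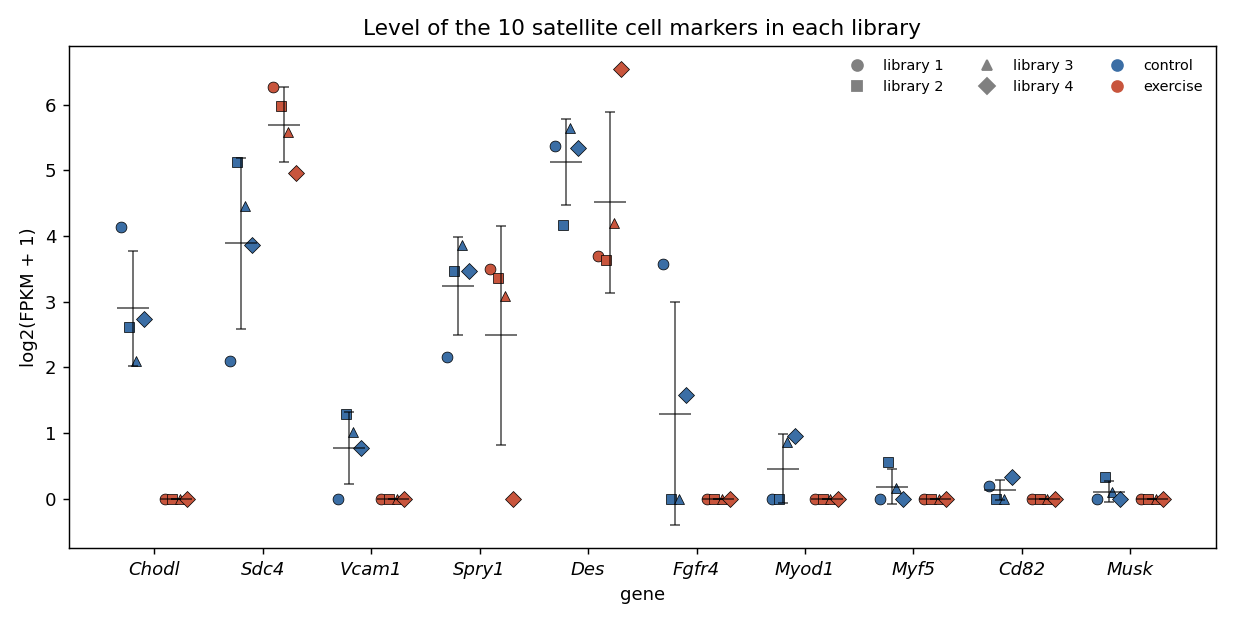
Level of each of the 10 genes as log2(FPKM + 1) in the 4 control (blue) and 4 exercise (red) libraries; each point is 1 library, its shape gives the library number, and bars give the mean and SD. Chodl lies above 0 in all 4 control libraries and at 0 in all 4 exercise libraries, while Sdc4 is the gene whose exercise mean is above its control mean.

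**Figure D2:**
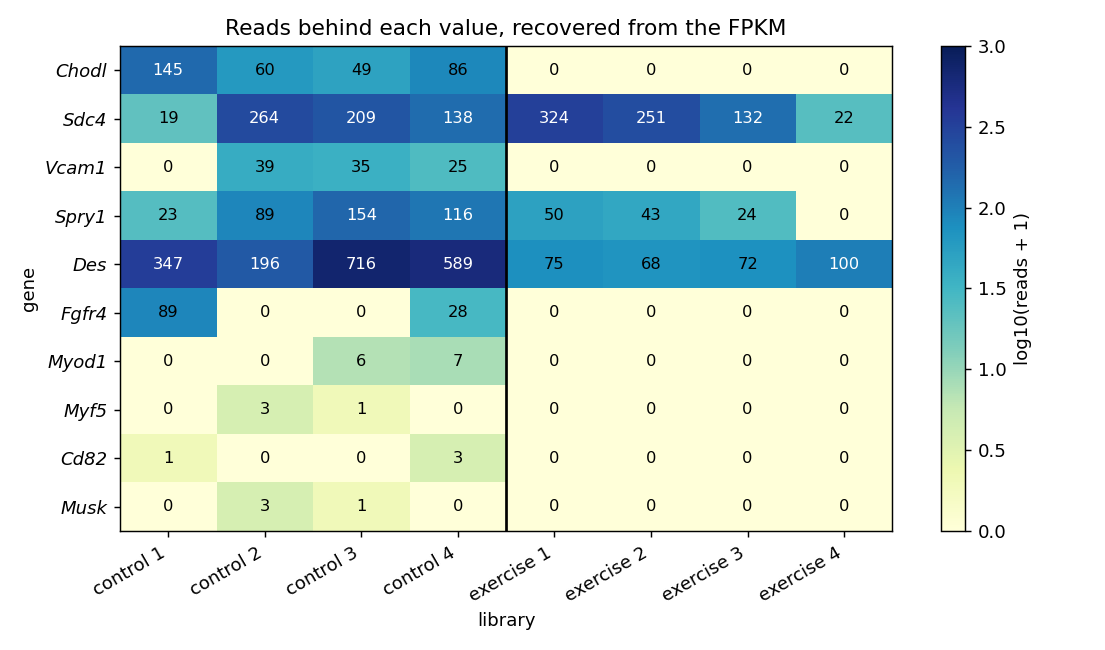
Reads recovered for each gene (rows) in each library (columns), with the number of reads written in each cell and its log10(reads + 1) as the colour. The 7 genes with no read in exercise libraries hold between 4 and 340 reads over the 4 control libraries.

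At an adjusted p below 0.05 (limma on log2(FPKM + 1), Benjamini-Hochberg over all genes tested), 1 of the 5 genes tested, Chodl, was lower in exercise libraries, beside 26.8% of all genes tested. None was higher, beside 8.78% of all genes tested; at an unadjusted p below 0.05 there was 1, Sdc4, beside 11.9% of all genes tested, and limma-voom on the recovered reads also called 0 higher, beside 9.24%. The 4 exercise values lay below the 4 control values for Chodl, which happened in 24.0% of all genes tested, and above them for none of the 5, beside 7.62%. Of the 5 genes tested, Chodl and Fgfr4 had no read in exercise libraries, beside 30.4% of the genes tested. Both passed the filter only through their control libraries and so had to differ. The counts are small and are given as a description of these genes. Over all genes tested the median log2 fold change was -1.42, and it was -0.44 after quantile normalization, -1.62 with reads scaled to library totals and -2.21 with voom. Relative to that median in the deposited scaling, Chodl lay at -1.48, Fgfr4 at 0.13, Spry1 at 0.66, Des at 0.80 and Sdc4 at 3.22.

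The stretches before the start sites of Chodl, Sdc4 and Des are shown, since Chodl was the gene that passed the test, Sdc4 the gene with the higher mean in exercise libraries, and Des the gene with the most control reads. RefSeq start sites (GRCm38.p6) were used for 8 of the 10 genes, and those of Vcam1 and Myod1 were not analysed here. Each sequence holds the 250 bases before the RefSeq start, 5′ to 3′ on the strand of the gene. The RefSeq start of Sdc4 lies downstream of the start in GENCODE, so that its stretch falls inside the gene at the GENCODE coordinates given below. Capitals mark the E-box CANNTG, the motif bound by MyoD and Myf5 with their partners, and the GC box GGGCGG or its reverse complement CCGCCC.
Chodl, chr16:78930698-78930947, plus strand: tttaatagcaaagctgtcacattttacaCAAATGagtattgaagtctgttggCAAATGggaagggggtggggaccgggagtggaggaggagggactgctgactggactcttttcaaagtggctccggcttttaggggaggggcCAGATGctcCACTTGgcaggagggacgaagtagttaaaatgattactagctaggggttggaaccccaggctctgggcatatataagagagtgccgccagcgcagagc
Sdc4, chr2:164443189-164443438, minus strand: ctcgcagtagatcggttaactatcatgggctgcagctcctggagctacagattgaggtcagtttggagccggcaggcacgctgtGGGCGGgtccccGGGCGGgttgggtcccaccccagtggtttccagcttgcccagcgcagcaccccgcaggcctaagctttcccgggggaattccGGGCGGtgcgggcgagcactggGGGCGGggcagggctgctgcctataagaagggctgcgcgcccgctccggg
Des, chr1:75360042-75360291, plus strand: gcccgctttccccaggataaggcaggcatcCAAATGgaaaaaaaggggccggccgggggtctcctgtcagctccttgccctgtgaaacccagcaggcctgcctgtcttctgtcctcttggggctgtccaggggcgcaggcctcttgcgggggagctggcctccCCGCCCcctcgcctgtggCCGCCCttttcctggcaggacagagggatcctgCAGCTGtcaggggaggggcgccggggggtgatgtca
Chodl held 4 E-boxes and 0 GC boxes, and the first letters of its E-boxes stood 222, 198, 107 and 98 bases before the start. Sdc4 held 0 E-boxes and 4 GC boxes. Des held 2 E-boxes, of which CAGCTG stood 36 bases before the start, and 2 GC boxes.

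Among the other genes with a RefSeq start, Musk held 3 E-boxes with 1 CAGCTG, Spry1 and Fgfr4 held 2 each, and Myf5 held 0. Cd82 had 4 annotated starts, of which 2 held 1 E-box each. The E-box reads the same way on both strands as CANNTG, and CAGCTG is contained in it. Over all 32851 RefSeq windows of this length, 66.2% held a CANNTG, 13.0% a CAGCTG and 32.7% a GC box. These matches describe letters and not binding sites, and no match says only that the letters are not in this window.

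Chodl encodes chondrolectin, a membrane protein with a C-type lectin domain. The gene lies on GRCm38 chr16:78930948-78951733, plus strand. Its levels were 16.5, 5.13, 3.29 and 5.65 FPKM in controls 1 to 4, from 145, 60, 49 and 86 reads. All 4 exercise libraries held 0 reads. The groups did not overlap, and control 1 was the highest library. The mean was 7.65 ± 6.02 FPKM (SD, n = 4) in control libraries, and against the floor of 3 reads per library the level in exercise libraries was at least 6.97-fold lower, or at least 4.27-fold without control 1 and 13.7-fold where the floor of exercise 4 is left out. On the log2(FPKM + 1) scale Chodl fell by 2.90 ± 0.60 (SE; limma, adjusted p = 0.00881), and the exact two-sided permutation test gave p = 0.0286, the smallest that 4 libraries against 4 allow.

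The depth behind the zeros of Chodl differed between exercise libraries. The floor was 0.470, 0.492 and 0.708 FPKM in exercise 1, 2 and 3 and 2.73 FPKM in exercise 4, where it lay close below the lowest control value of 3.29 FPKM. At the control share of 31.5 RPM (reads scaled to the total of the library), the exercise libraries would together have held 139 reads. Chodl passed the test without each of the 8 libraries in turn (adjusted p = 4.6e-04 to 0.0396) and with exercise 1 and 2 averaged (adjusted p = 0.0374). With control 4 and exercise 3 also left out, its log2 fold change was -2.95 with an adjusted p of 0.458, a setting in which limma called 0 of 4328 genes, 451 having an unadjusted p below 0.05. After quantile normalization its log2 fold change was -1.67 (adjusted p = 0.0681). The deposited gene length of Chodl was 3820 bases, against 5491 exonic bases in the annotation, which scales all its FPKM values alike.

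Sdc4 encodes syndecan-4, a heparan sulfate proteoglycan of the cell surface that binds fibroblast growth factors and fibronectin. It maps to chr2:164424247-164443887, minus strand. Its levels were 3.25, 33.8, 21.0 and 13.6 FPKM in controls 1 to 4 (19, 264, 209 and 138 reads). In exercise 1 to 4 they were 76.1, 61.8, 46.7 and 30.0 FPKM (324, 251, 132 and 22 reads). The groups overlapped only in that control 2 was above exercise 4, and control 1 was the lowest library. The means were 17.9 ± 12.9 and 53.6 ± 19.8 FPKM (SD, n = 4 each), 2.99-fold higher in exercise libraries.

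The log2 fold change of Sdc4 was 1.81 ± 0.81 (SE), with a 95% interval of 0.00135 to 3.61, and did not pass the test (limma, adjusted p = 0.101; exact permutation p = 0.0571). As a share of reads the order of the libraries changed. Sdc4 took 306, 248, 110 and 19.0 RPM in exercise 1 to 4, and 8.12, 99.1, 69.4 and 49.5 in controls 1 to 4. Exercise 4 was then below 3 of the control libraries, and the exact permutation p was 0.171. The value of exercise 4 thus turns on its library size factor of 0.167, the smallest of the 8, in a library with 68.7% mitochondrial reads. With exercise 1 and 2 averaged, the log2 fold change of Sdc4 was 1.67 (adjusted p = 0.19), and without control 4 and exercise 3 as well it was 1.65 (adjusted p = 0.524). Sdc4 passed the test in 1 other setting, quantile normalization, with a log2 fold change of 2.80 (adjusted p = 0.0473). Its log2 fold change was above 0 in every setting run, from 1.21 without control 1 to 2.80.

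Vcam1 encodes an adhesion molecule of the immunoglobulin family that binds α4-integrin and is used to sort SCs. Its locus is chr3:116109949-116129688, minus strand. It was read at 1.44, 1.011 and 0.707 FPKM in controls 2, 3 and 4, from 39, 35 and 25 reads, and had 0 reads in control 1 and in all 4 exercise libraries. Control 1 thus matched the exercise libraries, and the groups touched at 0 (exact permutation p = 0.143). Its control mean was 0.789 ± 0.605 FPKM (SD, n = 4), and the exercise level was at least 1.67-fold lower, or 3.29-fold where the floor of exercise 4 is left out. Vcam1 is the longest of the 10 genes, with 8870 bases, so that its reads exceed those of shorter genes at the same FPKM. It was under the filter of 1 FPKM and had no adjusted p in the fit of 4328 genes; with no filter its adjusted p was 0.0992.

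Cd82 encodes a tetraspanin of the cell surface. It was annotated at chr2:93419111-93463140, minus strand. It had 1 read in control 1 and 3 reads in control 4, or 0.145 and 0.251 FPKM, and 0 reads in the other 6 libraries. Both groups were at or under the floor of 3 reads, and at the control share the exercise libraries would together have held 1.64 reads. A difference in Cd82 was not detectable at this depth.

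Fgfr4 encodes a receptor tyrosine kinase for fibroblast growth factors that myoblasts are known to express. Its position is chr13:55152640-55168759, plus strand. It was read at 11.0 FPKM in control 1 (89 reads) and 1.98 FPKM in control 4 (28 reads), and had 0 reads in controls 2 and 3 and in all exercise libraries. Control 1 therefore carried the mean of 3.23 ± 5.23 FPKM (SD, n = 4). The share of reads in control 4 was 0.264 of that in control 1. The median was 0.281 over the 345 genes with many reads in control 1 and none in control 3. The log2 fold change was -1.29 ± 0.76 (SE; limma, adjusted p = 0.178; exact permutation p = 0.429), and without control 1 it was -0.53. Against the floor, the exercise level was at least 2.73-fold lower, or at least 5.39-fold where the floor of exercise 4 is left out. The bound rests on control 1: without it the control mean of 0.661 FPKM was below the mean floor of 1.19 FPKM.

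Spry1 encodes an intracellular inhibitor of receptor tyrosine kinase signalling, which SCs need to return to quiescence. It spans chr3:37639947-37644598, plus strand. Its levels were 3.45, 10.001, 13.6 and 10.02 FPKM in controls 1 to 4 (23, 89, 154 and 116 reads). In exercise 1 to 3 they were 10.3, 9.27 and 7.45 FPKM (50, 43 and 24 reads), all within the control range. Exercise 4 had 0 reads, which allows up to 3.58 FPKM, so that its value can still lie at the level of control 1. The means were 9.26 ± 4.22 and 6.75 ± 4.65 FPKM (SD, n = 4 each). The log2 fold change of -0.75 ± 0.91 (SE) did not pass the test (limma, adjusted p = 0.503; exact permutation p = 0.514), and it was 0.08 without exercise 4 and 0.45 after quantile normalization.

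Musk encodes the receptor tyrosine kinase through which agrin clusters acetylcholine receptors at the neuromuscular junction. The gene lies on chr4:58285960-58374303, plus strand. It had 3 reads in control 2 and 1 read in control 3, or 0.259 and 0.0678 FPKM, and 0 reads in the other 6 libraries. Both groups were at or under the floor, and a difference was not detectable at this depth.

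Myf5 and Myod1 encode basic helix-loop-helix factors that commit cells to the muscle lineage. Myf5 lies on chr10:107482908-107486134, minus strand, and Myod1 on chr7:46376474-46379099, plus strand. Myf5 had 3 reads in control 2 and 1 read in control 3, or 0.470 and 0.123 FPKM, and 0 reads elsewhere. Its pair of control counts, 3 and 1, was the same as that of Musk, in the same libraries. Myod1 had 6 reads in control 3 and 7 reads in control 4, or 0.826 and 0.944 FPKM, with exact Poisson 95% intervals of 2.20 to 13.1 and 2.81 to 14.4 reads. Controls 1 and 2 and all exercise libraries had 0 reads of Myod1.

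In this table the myogenic factors were thus read only in control libraries, with few reads. The paper reports the opposite direction for MyoD, which was elevated in exercise mice by qPCR on sorted SCs of mice injected with PBS. The floor of Myod1 was 0.964 FPKM in exercise 1 and 5.59 FPKM in exercise 4, above both control values. Its control mean of 0.442 FPKM was below the mean floor of 2.26 FPKM in exercise libraries, so that no bound can be given. At the control share, which rests on 13 reads, the exercise libraries would together have held 5.32 reads. Controls 1 and 2 were at 0 as well, and the exact permutation p was 0.429. For Myf5 the exercise libraries would have held 1.64 reads at the control share, so that a difference was not detectable at this depth (exact permutation p = 0.429). Myog and Myf6, the factors of later differentiation, had 0 reads in all 8 libraries.

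Des encodes desmin, the intermediate filament protein of muscle cells. The gene lies on chr1:75360329-75368579, plus strand. Its levels were 40.3, 17.0, 48.9 and 39.4 FPKM in controls 1 to 4 (347, 196, 716 and 589 reads). In exercise 1 to 4 they were 11.9, 11.4, 17.3 and 92.4 FPKM (75, 68, 72 and 100 reads). Exercise 4 was the highest library and exercise 1 and 2 were the lowest. The means were 36.4 ± 13.6 and 33.3 ± 39.5 FPKM (SD, n = 4 each), and the log2 fold change of -0.61 ± 0.84 (SE) did not pass the test (limma, adjusted p = 0.551; exact permutation p = 0.457).

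The height of Des in exercise 4 went with the scaling of that library. As a share of reads, Des took 70.9, 67.2, 60.0 and 86.5 RPM in exercise 1 to 4, and 148, 73.6, 238 and 211 in controls 1 to 4. The shares overlapped only in that control 2 was below exercise 4 (exact permutation p = 0.0571). Scaled to library totals, the log2 fold change was -1.08 (adjusted p = 0.22), without exercise 4 it was -1.29 (adjusted p = 0.0798), and after quantile normalization it was 0.17. Summed transcripts of 12 myofiber genes, in which Des is not included, took 8.23% to 13.1% of reads in control and 3.35% to 5.61% in exercise libraries. The part of myofiber RNA in the level of Des was not tested.

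**Figure D3:**
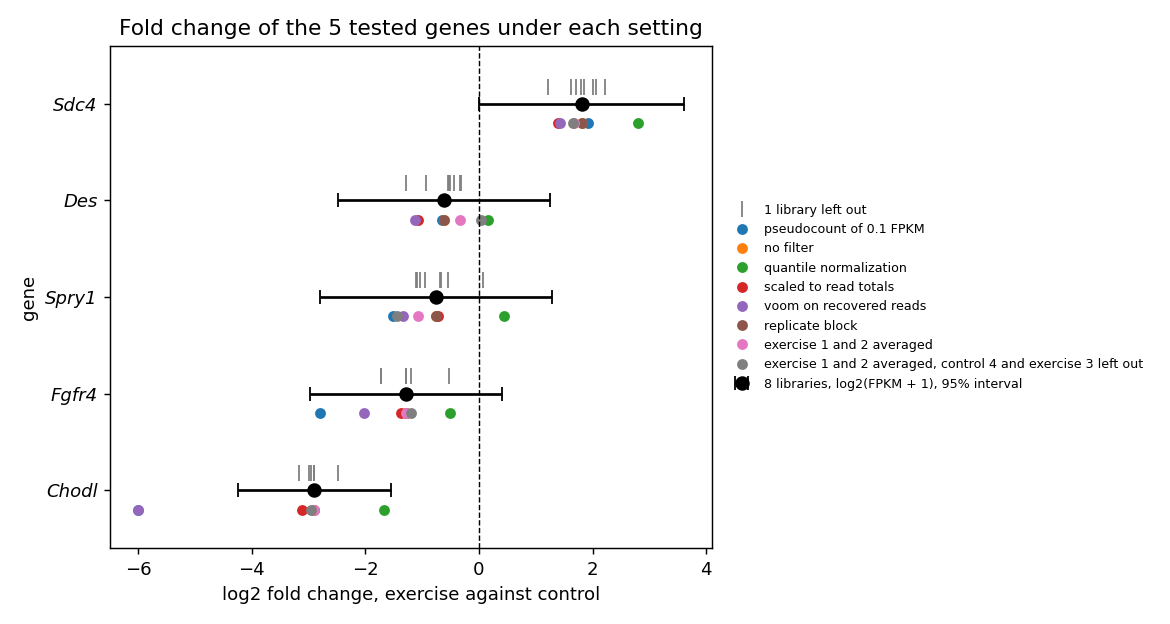
Log2 fold change (exercise against control) of the 5 genes tested, with the fit on 8 libraries and its 95% interval in black, each library left out in grey ticks and other settings as coloured points, of which equal values cover each other. Chodl lies below 0 and Sdc4 above 0 in every setting, while Spry1 and Des have settings on both sides of 0.

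In control libraries the mean levels per gene length ran from Des (36.4 FPKM) over Sdc4 (17.9), Spry1 (9.26), Chodl (7.65), Fgfr4 (3.23), Vcam1 (0.789), Myod1 (0.442), Myf5 (0.148) and Cd82 (0.0989) to Musk (0.0818). The ranges of all neighbours in this order overlapped. Des was above Sdc4, Sdc4 above Spry1, and Spry1 above Chodl in 3 of 4 control libraries each, and Chodl was above Fgfr4 in 4 of 4. In exercise libraries the order was Sdc4 (53.6 FPKM), Des (33.3) and Spry1 (6.75), with the other 7 at 0. Sdc4 was above Des in 3 of 4 exercise libraries, the exception being exercise 4, and the ranges of Des and Spry1 did not overlap.

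The 10 genes lie on 8 chromosomes. Cd82 and Sdc4 share chromosome 2 and Spry1 and Vcam1 share chromosome 3, in each case far apart. For each gene tested, the gene of most similar pattern was found by the root mean square difference of centred log2(FPKM + 1) over the 8 libraries, among 4323 others. It was Tfb2m for Chodl (0.14), Fndc3b for Sdc4 (0.37), Dynll2 for Spry1 (0.28), Ufm1 for Des (0.35) and Sin3a for Fgfr4 (0.01). Sin3a repeated the levels of Fgfr4, at 11.0, 0, 0 and 2.05 FPKM in controls 1 to 4 and 0 in exercise libraries. Fndc3b, like Sdc4, was lowest in control 1 (3.42 FPKM) and highest in exercise 1 and 2 (41.3 and 41.9 FPKM).

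Other genes of the pathways to which these markers belong were counted in lists, to be read beside the 26.8% of all genes tested that were lower, the 8.78% that were higher and the median of -1.42. Of the genes named below, Spry2, Grb2 and Agrn had 0 exercise reads and Dok7, Heyl and Myh11 had 0 control reads, so each passed the filter only through the group in which it was read and had to differ. The same holds for Cd63 and Kdr, whose exercise means were 0.561 and 0.219 FPKM, and for Tek and Scx, whose control means were 0.0231 and 0.167 FPKM. The tests of all genes named in these sentences are therefore given as a description. In the list of FGF receptor and Sprouty signalling, 5 of 16 genes were tested, with 2 lower, 0 higher and a median log2 fold change of -1.16. Spry2, a further Sprouty inhibitor, was read at 17.1, 11.3 and 7.70 FPKM in controls 2, 3 and 4 and had 0 reads elsewhere (log2 fold change -2.73, limma, adjusted p = 0.0392), so that in exercise libraries it was at least 4.48-fold lower, or at least 8.84-fold where the floor of exercise 4 is left out. Grb2, the adaptor that couples receptors to Ras, was read in the same 3 libraries only (log2 fold change -2.18, adjusted p = 0.047, at least 3.64-fold lower, or 7.19-fold where the floor of exercise 4 is left out). Each of the pair passed the test in 4 of 16 other settings. Dusp6, a phosphatase that limits ERK, had the highest mean, with 1.56 to 4.89 FPKM in control and 2.22 to 27.9 FPKM in exercise libraries (log2 fold change 1.63, adjusted p = 0.14).

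In the list around syndecans, tetraspanins and the integrins that bind VCAM1, 6 of 10 genes were tested, with 2 lower, 0 higher and a median of -1.99. Cd63 and Cd81 encode tetraspanins, as Cd82 does. Cd63 was read at 22.1, 68.1, 48.1 and 38.6 FPKM in controls 1 to 4 and at 0.812, 0, 0.49 and 0.942 FPKM in exercise 1 to 4 (log2 fold change -4.79, adjusted p = 0.00124). Cd81 was at 272.6, 129.2, 70.03 and 93.2 FPKM in control and at 16.8, 13.7, 10.7 and 2.41 FPKM in exercise libraries (log2 fold change -3.62, adjusted p = 0.0104). In both the groups did not overlap. The exercise values of Cd63 rest on 8 reads in all and those of Cd81 on 180. In exercise 4 both were below the floor of 3 reads, which was 2.83 FPKM for Cd63 and 3.62 FPKM for Cd81. Each passed the test in 15 of 16 other settings. Sdc1, the syndecan with the highest mean, was at 0.1145 FPKM in control 1, 295 to 486 FPKM in the other controls and 3.64 to 51.0 FPKM in exercise libraries (adjusted p = 0.374).

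In the list of agrin and acetylcholine receptor clustering, to which Musk belongs, 5 of 10 genes were tested, with 1 lower, 1 higher and a median of -1.22. Dok7, the adaptor that activates MuSK inside the cell, had 0 reads in all control libraries and 4195, 4101, 1527 and 29 reads in exercise 1 to 4. These were 587, 601, 322 and 23.5 FPKM, at least 1721-fold higher on the mean (log2 fold change 7.85, adjusted p = 0.00113). Agrn, the ligand, was at 0.047, 13.5, 8.03 and 4.92 FPKM in controls 1 to 4 with 0 reads in exercise libraries (log2 fold change -2.42, adjusted p = 0.0415). The value of control 1 was 1 read. Dok7 passed the test in 15 of 16 other settings and Agrn in 4. Among the myogenic regulators and their partner factors, 7 of 16 genes were tested and none passed (limma), with a median of -1.87. Id3, an inhibitor of helix-loop-helix factors, had the highest mean there, with 90.8 to 115.6 FPKM in control libraries and 8.68, 12.2, 29.7 and 149 FPKM in exercise 1 to 4 (adjusted p = 0.123). In the network of desmin 5 of 9 genes were tested and none passed, with a median of 0.33, and Cryab, a chaperone of desmin, had the highest mean (243 to 451 FPKM in control and 417 to 682 FPKM in exercise libraries, adjusted p = 0.253).

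Of 13 other genes linked to SC identity, 6 had no read in any library and 5 were tested, with 0 lower and 1 higher. That gene was Heyl, a Notch target, named here after its values were seen. It had 0 reads in control libraries and 28.4, 27.2, 11.8 and 0.679 FPKM in exercise 1 to 4 (log2 fold change 3.53, adjusted p = 0.0212), of which the last was 1 read. It passed the test in 9 of 16 other settings.

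Markers of other cell types were read beside these genes. Of the antigens of the negative gate, Ptprc, Itgam and Pecam1 had 0 reads in all 8 libraries, and Ly6a was read at 0 to 8.94 FPKM in control and 0 to 7.445 FPKM in exercise libraries. All 9 macrophage and leukocyte genes had 0 reads. Acta1, the highest of the 12 myofiber genes, was at 16152 to 30962 FPKM in control and 9438 to 26198 FPKM in exercise libraries, and 2 of 10 genes tested in that list were lower. Dcn, the highest of the 8 fibro-adipogenic genes, was at 1243 to 1900 FPKM in control and 1065 to 1581 FPKM in exercise libraries, with 1 of 7 genes tested higher. Summed over the list, fibro-adipogenic genes were at 1406 to 2217 FPKM in control and 1485 to 2218 FPKM in exercise libraries, against 68.2 to 88.8 and 71.5 to 122 FPKM for the 10 markers.

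The remaining lists are shown in the plot of marker lists. Kdr, the highest of the 8 endothelial genes, was at 0 FPKM in control 1, 1076 to 2994 FPKM in controls 2 to 4, and 0 to 0.53 FPKM in exercise libraries. Vcam1 is known from endothelium as well, and the part of endothelial RNA in its reads was not tested. Of the defining endothelial markers, Pecam1, Cdh5, Emcn and Cldn5 were at 0 in all libraries; 1 of 2 genes tested was lower (Kdr) and 1 higher, Tek, at 0 to 0.0925 FPKM in control and 4.42 to 25.8 FPKM in exercise libraries (log2 fold change 3.92, limma, adjusted p = 0.00395). Tnmd, the highest of the 5 tenocyte genes, was at 233 to 731 FPKM in control and 69.2 to 774 FPKM in exercise libraries. Of the 4 tenocyte genes tested 1 was higher, Scx, at 0 to 0.442 FPKM in control and 3.05 to 102.1 FPKM in exercise libraries (log2 fold change 5.05, adjusted p = 0.00844), of which the lowest exercise value was 1 read. Tek and Scx were named after their values were seen. Myh11, the highest of the 7 genes of smooth muscle and pericytes, had 0 reads in control libraries and 3.14 to 71.5 FPKM in exercise libraries. It was the 1 of 3 genes tested that passed as higher. Of the others tested, Acta2 went the other way, with means of 19.8 FPKM in control and 1.08 FPKM in exercise libraries. Pdgfrb had means of 2.91 and 10.8 FPKM, and neither passed. Rgs5, Cspg4, Tagln and Notch3 had 0 reads in all 8 libraries. Of the 8 genes of dissociation and stress, 8 were tested and 1, Atf3, was lower. Of 16 other settings, Kdr passed the test in 5, Atf3 in 2, and Tek, Scx and Myh11 in 15 each. The part of these cells in the levels of the 10 markers was not tested.

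**Figure D4:**
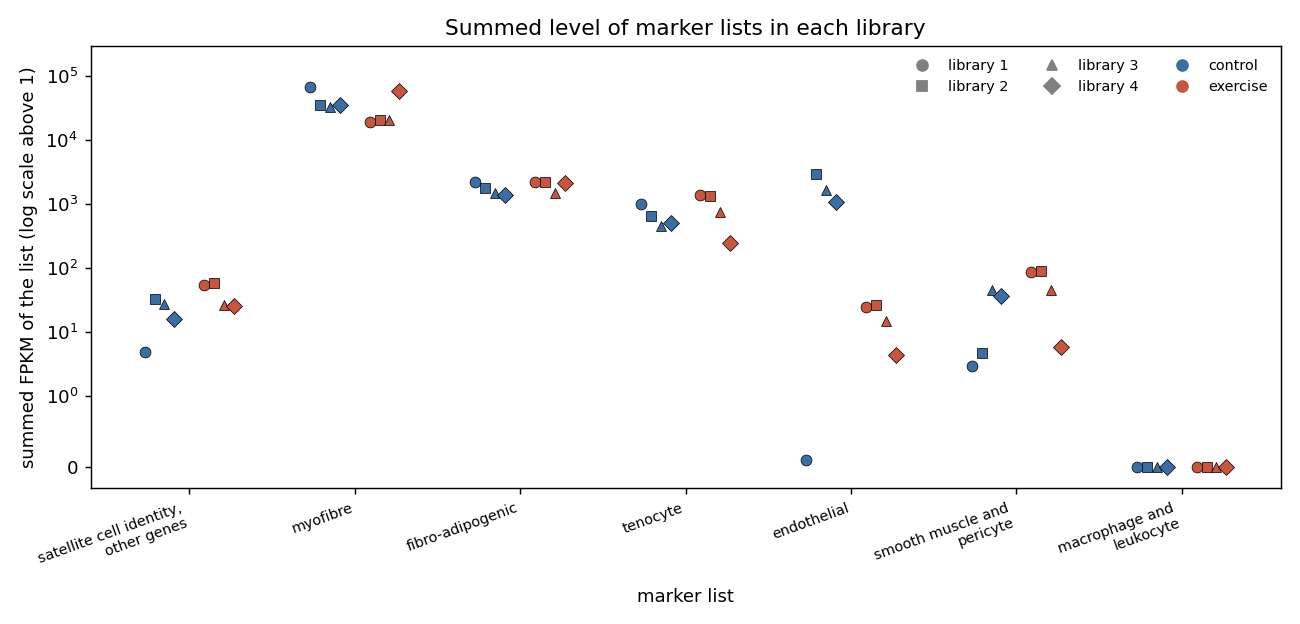
Summed FPKM of marker lists in the 4 control (blue) and 4 exercise (red) libraries, on an axis that is linear below 1 and logarithmic above; each point is 1 library and its shape gives the library number. Myofiber genes sum to 19592 FPKM or more in every library and the macrophage and leukocyte list is at 0 in all 8, while the endothelial list is near 0 in control 1 and at 1076 FPKM or more in the other controls.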

How the data were processed

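Libraries from 4 control and 4 exercise samples of sorted SCs were compared, with groups taken from the labels. The authors deposited 1 table of FPKM values, made per the labels with Bowtie 0.12.9, Cufflinks 2.1.1 and HTSeq on mm10. Multiplied by the deposited gene length, all values were whole multiples of 1 step per library (tolerance 0.001), which gave the reads. The library size in the deposited FPKM equalled the median-of-ratios size factor over 1023 rows, multiplied by the geometric mean of the read totals, so the values were already scaled between libraries. Of the gene identifiers, 99.6% were in GENCODE vM21 (GRCm38), and the coordinates of all 10 genes were the same there. Rows sharing a symbol were summed, which removed 101 rows.

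The 4328 genes averaging 1 FPKM or more were fitted in R 4.3.3 by limma 3.58.1, using lmFit, then eBayes with its variance trend, on log2(FPKM + 1). P-values were adjusted by the Benjamini-Hochberg method, and folds on this scale understate changes of low genes. Exact two-sided permutation tests covered 70 assignments. Python 3.11.15, numpy 2.4.6, pandas 2.3.3 and scipy 1.17.1 were used. Tested on simulated data with a log2 spread of 0.5, the fit recovered 62 of 200 genes changed by 1 and 200 of 200 changed by 3, with 5 false calls. The SDs of the 5 genes tested were larger, at 0.57 to 1.70 in groups with reads, so this overstates the recovery for them. The simulated libraries were drawn independently, with no gene at 0 throughout a group. The false calls therefore do not carry over to libraries that may share RNA. The alternatives were a pseudocount of 0.1, no filter, quantile normalization, scaling to read totals, voom, the replicate number as a block, leaving out each library, and the averaged or left-out libraries named above. The replicate numbers did not pair the libraries: the deviations of same-numbered libraries correlated at -0.02, 0.04, 0.02 and 0.02.

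The 10 genes, the lists of other genes and the settings were chosen with earlier results of these data known. Named were the 10 genes, the antigens of the sort, the called genes of pathway lists (at most 4 each) with the gene of highest mean FPKM, the highest gene of each list of another cell type, of which 1 list is not reported here, and the gene most similar to each gene tested. The annotated genes that overlap the 10 genes on either strand (Gm43109, Gm42922, Gm15179, Gm10804 and Mir7001) had 0 reads; whether the counting used strand is not given in the sources used here.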

Additional observations from a re-analysis of the deposited data

Results flagged for a closer look

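Spry1 in exercise 4 stood apart from the other exercise libraries. It was at 0 FPKM, against 7.45 to 10.3 FPKM in exercise 1 to 3, and its gap on the log2(FPKM + 1) scale was 0.880 of the range of the group, above Dixon's 95% critical value for 4 samples. The floor of 3 reads in that library is 3.58 FPKM, and 68.7% of its reads were mitochondrial. In all, 15 groups of 4 libraries were looked at, of which chance would flag 0.75. The part of the depth of exercise 4 in this value was not tested.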

How the results depend on the processing

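Chodl passed the test in 14 of 16 other settings and was below 0 in all 16, with log2 fold changes from -6.00 to -1.67. Having 0 exercise reads, it entered the test through its control libraries alone and had to differ, so its sign and passes are no sign of stability. It did not pass after quantile normalization (-1.67) or with exercise 1 and 2 averaged and control 4 and exercise 3 left out (-2.95), where no gene passed and fewer samples were fitted. The members called lower were 0 in both these settings and 1 in all others run, and after quantile normalization 1 (Sdc4, 2.80) was called higher in place of 0. Spry1 changed sign after quantile normalization (0.446) and without exercise 4 (0.077, in a range of -1.11 to 0.077 over the libraries left out), and Des after quantile normalization (0.167) and with the libraries averaged and left out (0.0429); none of these passed the test, and the cause was not tested. Counting each gene once over the lists of pathways, SC identity and other cell types, without the stress list, 9 genes were lower and 6 higher. With no filter 4 were lower, after quantile normalization 4 were lower and 10 higher, with read totals 14 were lower and with voom 15, with exercise 1 and 2 averaged 2 were lower, and with libraries also left out 0 were lower and 0 higher (limma; 451 of all 4328 genes had an unadjusted p below 0.05). Leaving out each library in turn gave 2 to 13 lower and 4 to 11 higher. The 2 came without exercise 1 or exercise 2, and the 11 without exercise 4.

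With the replicate block, 1 member was lower and 0 higher, Chodl had an adjusted p of 0.0346, and 4 list genes were lower and 5 higher. Since the libraries share only a number, the block is given only here. It called 789 genes lower and 270 higher over all, against 1161 and 380. Over all genes the counts were 375 and 566 after quantile normalization, 606 and 234 with no filter, and 363 to 1510 lower and 163 to 560 higher when 1 library was left out. Depth limits Myf5, Cd82 and Musk, which rest on at most 3 reads in a library. It also limits Myod1, whose control mean was below the mean floor in exercise libraries.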
